A study of Arabidopsis thaliana and Lactuca sativa with 158 samples.

Results

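The data described here are the 18 libraries from fully green leaves of Arabidopsis thaliana (ecotype Columbia-0, genotype Col-0) that carried the reporter RUBY under 1 of 2 promoters, out of 158 libraries in the series. Of the 18 leaves, 9 came from 35S::RUBY plants of 6 lines and 9 from ZmUBQ::RUBY plants of 3 lines. They were chosen by the leaf colour in the sample titles and by the labelled genetic modification, and lines marked T1 were left out. The 35S lines were MK016 (3 leaves), MK040 (2 leaves), MK042, MK043, MK044 and MK045 (1 leaf each). The ZmUBQ lines were MK054 (2 leaves), MK055 (3 leaves) and MK056 (4 leaves). Each green leaf has a fully red leaf with the same line and replicate number in its title, and these 9 and 9 fully red leaves served for comparison. All plants were 4 weeks old and grew at 22 °C with 18 h of light and 6 h of dark. The sources used here do not say how many transgene copies a line holds or whether 2 leaves with 1 number came from 1 plant. Leaves of a line are taken here to share their transgene insertion, which the labels do not state. The p-values over leaves therefore measure the spread between these leaves and not between independent insertions. Of the 5 cell type marker genes looked for, 0 were among the captured targets, so the labelled tissue is unchecked.

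RUBY codes for the enzymes that turn tyrosine into betalain, a red pigment, so the colour of a leaf reports whether the transgene is active. 35S is the constitutive promoter of cauliflower mosaic virus, and ZmUBQ is a ubiquitin promoter of maize that is used for constitutive expression. In post-transcriptional silencing of a transgene, RDR6 and its partner SGS3 copy RNA into double strands, DCL4 cuts these into small RNAs, and AGO1 uses the small RNAs to cleave further transcripts. RNA without a poly(A) tail, and RNA of the antisense strand, are therefore of interest beside the intact messenger RNA. The comparison asks how much RUBY RNA remained in leaves that had lost their colour, in which form, and whether this differed between the promoters.

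RNA of chosen targets was captured with biotinylated probes, and its cDNA was sequenced with nanopores. The deposited tables give a normalised signal for each of 77 captured targets, split by strand and by whether a read was marked pA, which is taken here as ending in a poly(A) tail. The summed signal of the 18 fully green libraries corresponded to 244298 to 747138 reads, and RUBY alone to 45232 to 323564 reads in 35S and 13245 to 39597 reads in ZmUBQ leaves. Among the 18 leaves, every ZmUBQ library has a library name in its label and no 35S library has one, so within them the promoter and the set of libraries cannot be told apart. A fully green leaf of the 35S line MK016_T1, outside the 18, does have a library name, and its table holds sense reads only. The numbering of library names in the file headers splits the 35S leaves into 2 runs, inferred from repeating numbers, with 4 leaves in run 1 (MK016_3, MK016_4, MK040_1 and MK040_2) and 5 in run 2. The summed signal of native targets, meaning those that are no part of a construct, was 227538 to 354737 in run 1, 522716 to 683970 in run 2 and 602868 to 682570 in ZmUBQ leaves. Within 35S, 33 of 60 targets were higher and 1 was lower in run 2 than in run 1 by limma at an adjusted p below 0.05 (56.7% in all), and RUBY was not among them (log2 difference -0.39). Values for each run are therefore given beside the results on RUBY and on the targets named below where the run bears on them.

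RUBY RNA was still present in every fully green leaf, and it was higher in all 9 leaves of 35S than in any leaf of ZmUBQ. The RUBY signal of all reads had a lowest value of 84175, a median of 114898 and a highest value of 243154 in 35S leaves. In ZmUBQ leaves it had a lowest value of 24649, a median of 37524 and a highest value of 56810. The ranges of the promoters did not overlap. The means were 129605 ± 50303 and 37948 ± 10173 (SD, n = 9 and 9), and the geometric means differed 3.33-fold. On the log2(signal + 1) scale the difference was 1.74 (SE 0.28, 95% interval 1.17 to 2.31; limma adjusted p = 7.35e-06). An exact two-sided permutation test gave p = 4.11e-05, the smallest that 48620 arrangements of 9 against 9 leaves can give (adjusted p = 0.000185 over 9 measures of RUBY). Both 35S leaves of line MK040, at 243154 and 174424, were the highest of all. Without that line the log2 difference was 1.52 (limma adjusted p = 4.97e-06). It was 1.95 with the 35S leaves of run 1 alone and 1.57 with those of run 2 alone, and the limma adjusted p was 4.31e-06 and 5.12e-08. With the mean of each line as 1 replicate, 6 lines against 3, it was 1.76 (limma adjusted p = 0.00338). RUBY took 12.1 to 43.3% of the summed signal in 35S and 3.74 to 7.87% in ZmUBQ leaves. In the leaf of MK016_T1, with a library name like the ZmUBQ leaves, the RUBY sense signal was 179567 and the pA share 20.9%. A library titled Col-0 Green, labelled as carrying 35S::RUBY, had a RUBY signal of 295, below every fully green leaf. In bulk tissue, fewer cells with RUBY RNA and less RUBY RNA per cell cannot be told apart.

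The larger part of the difference between promoters lay in reads without a pA mark. RUBY sense reads not marked pA had a signal of 87248 ± 44710 in 35S and a lowest value of 52823. In ZmUBQ leaves the highest value was 44532, in MK055_2, so the ranges did not overlap. The log2 difference was 2.20 (95% interval from shifted permutation tests 1.49 to 2.91; exact permutation p = 4.11e-05, adjusted p = 0.000185), which is 4.60-fold. Sense reads marked pA had a signal of 41418 ± 10680 in 35S. In 35S they ran from 20553 in MK016_3 to 53877 in MK040_1, and in ZmUBQ from 11201 in MK055_2 to 28496 in MK056_5. These ranges overlapped, and the log2 difference was 1.26 (95% interval 0.78 to 1.73; exact permutation p = 0.000206, adjusted p = 0.000617), which is 2.39-fold. With the 35S leaves of run 1 and of run 2 alone, the log2 difference was 2.59 and 1.89 in reads not marked pA, and 1.09 and 1.39 in reads marked pA, and all 4 passed by exact permutation tests. The log2 differences of the 2 kinds of reads were not tested against each other, other than through the pA share.

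**Figure D1:**
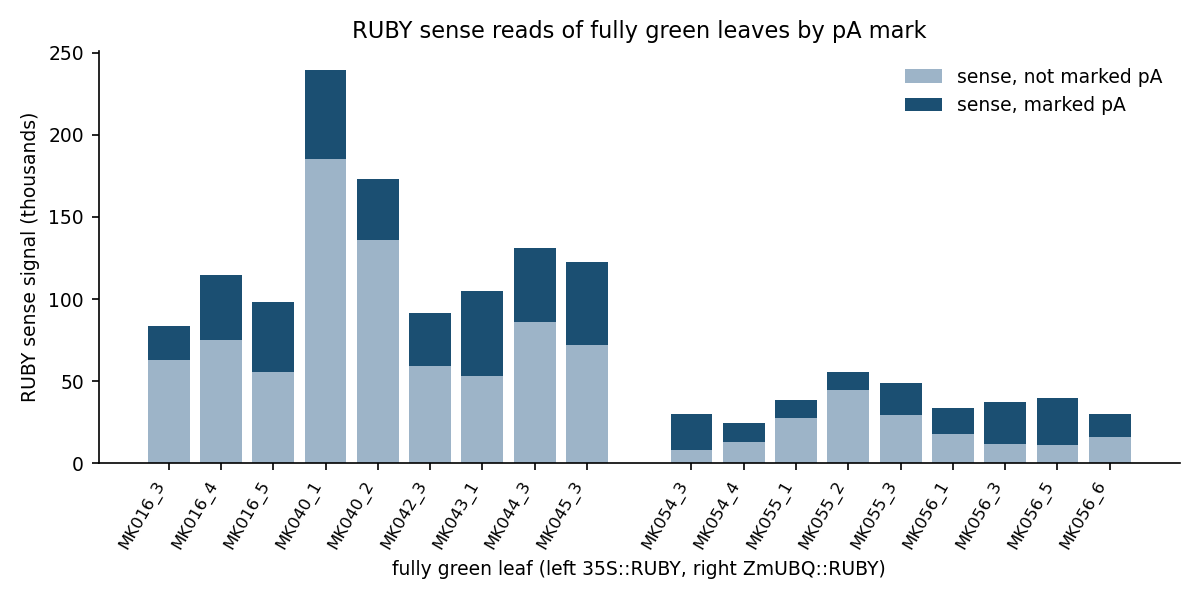
RUBY sense signal of each fully green leaf, stacked as reads not marked pA (light) and marked pA (dark), for 9 leaves of 35S::RUBY on the left and 9 of ZmUBQ::RUBY on the right. The light part is at least 52823 in every 35S leaf and at most 44532 in every ZmUBQ leaf, and MK040_1 and MK040_2 have the tallest bars.

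The pA share of RUBY sense reads was 34.1% ± 9.83 in 35S and 49.3% ± 18.5 in ZmUBQ leaves (SD, n = 9 and 9). In 35S it was lowest in MK040_2 (21.3%) and MK040_1 (22.5%) and highest in MK043_1 (49.7%). The ZmUBQ leaves stood apart by line. Line MK055 had 29.6%, 20.1% and 39.4%. Line MK054 had 72.5% and 48.0%. Line MK056 had 47.5%, 68.1%, 71.6% and 47.1%, so all 6 leaves of these 2 lines exceeded the 3 of MK055. With each read taken as independent, the widest 95% Wilson interval was ± 0.46 percentage points in 35S and ± 0.85 in ZmUBQ leaves, small beside these gaps. Such intervals cover the counting of reads only. Reads are not independent molecules, so error from the number of molecules is not covered. The difference of 15.3 percentage points (35S minus ZmUBQ, -15.3, 95% interval -30.02 to -0.32) had an exact permutation p of 0.0458 and did not pass after adjustment (adjusted p = 0.103). Line MK055 had the lowest mean share of the ZmUBQ lines, 29.7% against 60.3% in MK054 and 58.6% in MK056. Leaving out MK055 therefore widens the difference, while leaving out MK056 gave the smallest difference of any leaf or line left out. Without line MK055 the difference was -25.1 and passed (exact permutation, adjusted p = 0.00216). Without the single leaf MK055_2, the lowest ZmUBQ leaf, it was -18.9 and passed too (exact permutation, adjusted p = 0.0223). It was -23.7 with the 35S leaves of run 1 alone and -8.56 with those of run 2 alone, and neither passed (exact permutation, adjusted p = 0.0818 and 0.442).

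The share of pA reads among native targets of the same library, which was 51.4 to 62.5% in 35S and 43.0 to 58.2% in ZmUBQ leaves, gives a level to read the RUBY share against. The RUBY share was below that of native targets in 9 of 9 leaves of 35S, and RUBY minus native ran from -37.4 percentage points in MK040_2 to -5.81 in MK043_1. In ZmUBQ it was below in 5 leaves and above in 4 leaves. The leaves above were MK054_3 by 20.9, MK056_5 by 13.4, MK056_3 by 10.1 and MK056_1 by 4.56 percentage points. The native level pools targets by their signal, and this mix differed between the promoters. The native target SADHU1-1 had a mean signal of 24152 in 35S and 147947 in ZmUBQ leaves. Its mean pA share was 68.3% and 75.2%. The counts of leaves above and below are thus read against unlike mixes, and were not redone without SADHU1-1. In the library titled Col-0 Green the RUBY pA share was 84.3%.

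Antisense RUBY reads were a small part of the RUBY reads of every leaf. The antisense share was 0.60% ± 0.42 in 35S and 0.92% ± 0.91 in ZmUBQ leaves. Native targets of these leaves lay on both sides. The mean antisense share of AGO1 was 0.35% in 35S and 0.39% in ZmUBQ, and that of RDR6 8.98% and 5.06%. For RUBY all 3 leaves of MK055 were high, at 1.84%, 1.90% and 2.31%. The lowest share was that of MK056_6 at 0.0076%, from 1 read of 13245. In 35S it was highest in MK040_1 at 1.56%. The difference of -0.32 percentage points (95% interval -1.03 to 0.38) did not pass (exact permutation p = 0.354, adjusted p = 0.354) and was 0.23 without line MK055. It was -0.02 with run 1 alone and -0.56 with run 2 alone, and passed in neither. Antisense signal itself was 939 ± 1136 in 35S. It ran from 167 to 3803 in 35S and from 2.25 to 1151 in ZmUBQ leaves. The log2 difference of 2.10 did not pass (95% interval -0.10 to 4.37; exact permutation p = 0.0605, adjusted p = 0.109). Without line MK055, whose 3 leaves had the highest antisense signal under ZmUBQ, it was 3.50 and passed (exact permutation, adjusted p = 0.00216). Leaving out line MK056 instead gave the smallest log2 difference of any leaf or line left out. The log2 difference was 3.06 with run 1 alone and 1.34 with run 2 alone, and passed in neither (exact permutation, adjusted p = 0.107 and 0.442). The lines with the lowest mean pA share under each promoter, MK040 and MK055, also held the leaf with the highest antisense share under that promoter. Within lines the order varied. In MK016 the leaf at 24.6% pA had 0.78% antisense and the leaf at 43.7% pA had 0.17%. In MK056 the leaf at 68.1% pA had 1.21% antisense and the leaf at 47.1% pA had 0.0076%. A link between the 2 shares was not tested.

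**Figure D2:**
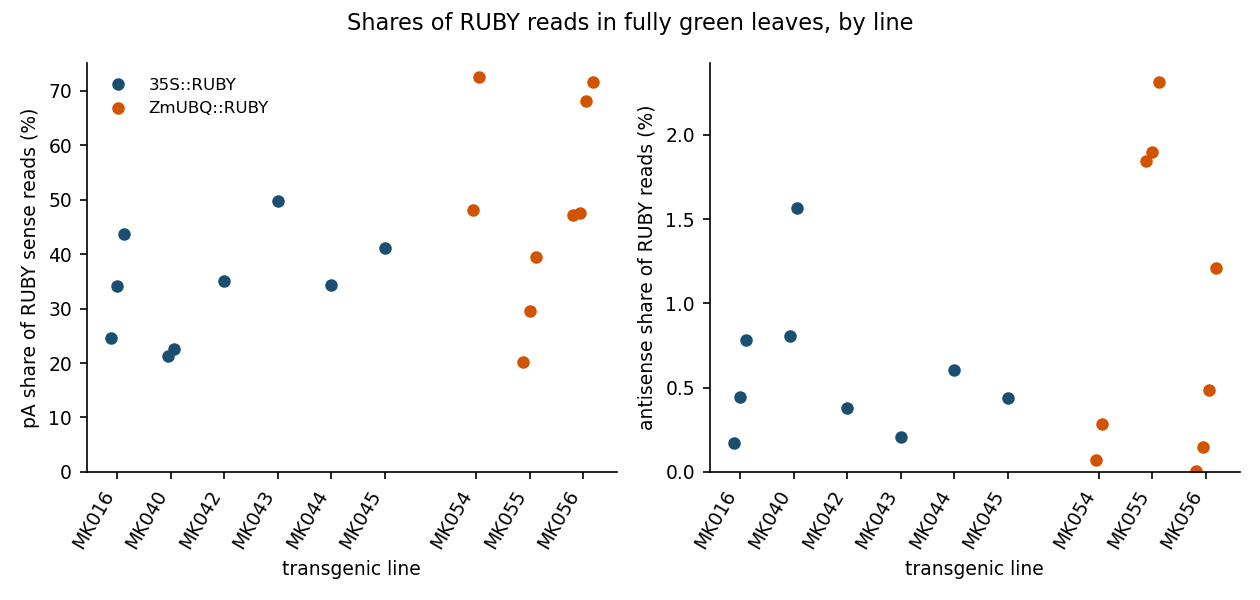
Each point is 1 fully green leaf, placed by its transgenic line, with 35S::RUBY in blue and ZmUBQ::RUBY in orange. The left panel gives the pA share of RUBY sense reads and the right panel the antisense share of all RUBY reads, both in percent. Line MK055 is the lowest ZmUBQ line on the left, at 20.1 to 39.4%, and the highest line on the right, at 1.84 to 2.31%.

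Full-length RUBY molecules were almost absent from fully green leaves under both promoters. The tables restricted to full-length reads, with duplicates merged by molecular identifier, held 26 such molecules over the 9 leaves of 35S and 16 over the 9 of ZmUBQ, with 0 to 6 and 0 to 7 in a leaf. None was found in 2 leaves of 35S and in 5 of ZmUBQ, where a count of 0 allows up to 3 molecules. The ZmUBQ leaves without any were the 3 of MK055 together with MK056_1 and MK056_6. The log2 difference in full-length signal was 0.63 (95% interval -0.67 to 1.93; exact permutation p = 0.311, adjusted p = 0.350). Relative to all RUBY reads it was -1.11 on the log2 scale (95% interval -2.56 to 0.34; exact permutation, adjusted p = 0.156). That ratio rests on the pseudocount, with -1.61 at a pseudocount of 10 (exact permutation, adjusted p = 0.000247) and -0.15 at 0.1. It was -1.85 and passed without line MK055, whose 3 leaves held no such molecule (exact permutation, adjusted p = 0.0283). Leaving out line MK056 instead gave the smallest difference in that ratio of any leaf or line left out. Full-length RUBY signal was 3.33 ± 3.05 in green leaves of 35S and 2.34 ± 3.47 in those of ZmUBQ. In their fully red partners it was 235 ± 191 in 35S and 27.8 ± 21.1 in ZmUBQ leaves (SD, n = 9 and 9). The green leaf did not hold fewer molecules in every pair. MK040_1 and MK054_3 each had 2 in the green and 0 in the red leaf, and MK056_3 had 7 in the green and 4 in the red leaf. In every other pair the green leaf had fewer.

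Set beside its fully red partner, a green leaf had 41.6% ± 36.6 of the RUBY signal in 35S and 21.4% ± 3.43 in ZmUBQ (SD, n = 9 and 9). In ZmUBQ the green leaf had 17.1 to 25.5% of the signal of its red partner, with a median of 22.0%. In 35S it had 20.1 to 32.4% in the 7 pairs outside line MK040. The pairs of MK040 had 56.1% in MK040_2 and 135% in MK040_1, the only green leaf above its partner. The fully red library of MK040_1 had a summed signal of 310094, the lowest of the 18 red partners. The difference between promoters in the change from red to green was 0.68 on the log2 scale (SE 0.38, 95% interval -0.08 to 1.43) and did not pass (limma adjusted p = 0.714). Without line MK040 it was 0.29 (limma adjusted p = 0.849). With the 35S pairs of run 1 alone, which hold both pairs of MK040, it was 1.18 (limma adjusted p = 0.194). With those of run 2 alone it was 0.27 (limma adjusted p = 0.656). With each library centred on the median of its native targets it was 0.23 (limma adjusted p = 0.983). Fully red leaves themselves had a RUBY signal of 379332 ± 112929 in 35S and 179432 ± 50892 in ZmUBQ, a log2 difference of 1.06 (SE 0.26; limma adjusted p = 0.00453), and their ranges overlapped.

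**Figure D3:**
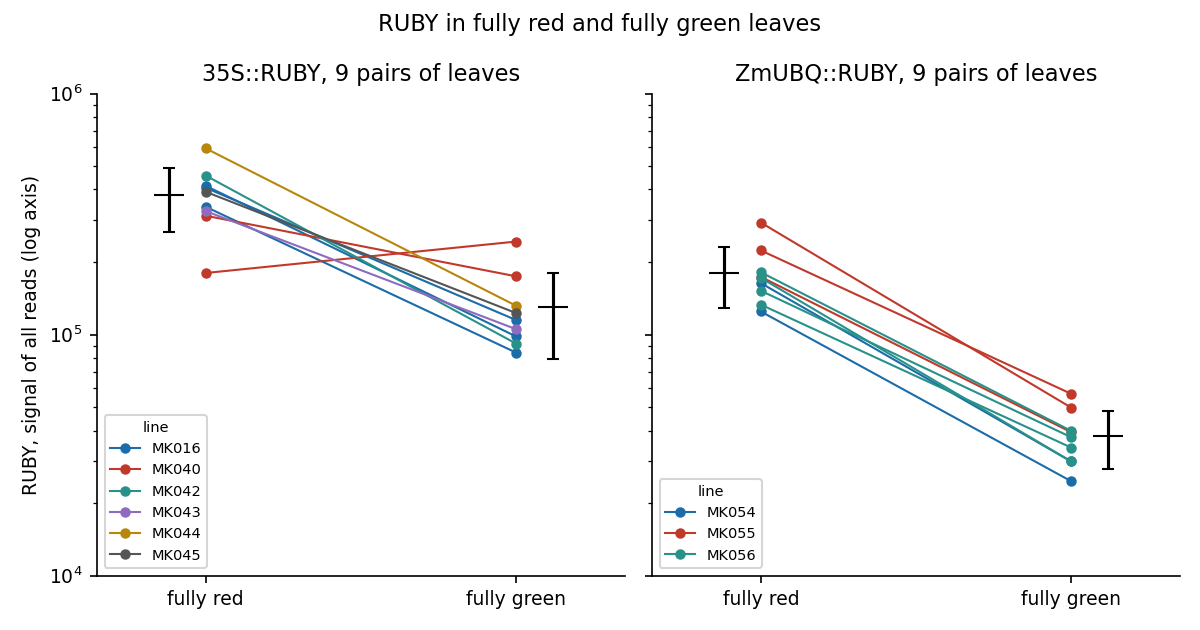
RUBY signal of all reads on a log axis in fully red and fully green leaves, with a line joining leaves of 1 transgenic line and number and a colour for each line. Black bars are means with SD (n = 9). All pairs fall from red to green except MK040_1, whose green leaf has 135% of the signal of its red partner.

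Reads marked pA were lower in the green leaf in all 18 pairs, and reads not marked pA in 16 of 18. In ZmUBQ pairs the green leaf had 7.33 to 20.8% of the pA signal of its partner (median 13.1%), and 21.4 to 66.4% of the signal not marked pA (median 39.0%). In 35S pairs it had 9.64 to 41.4% (median 14.5%) and 36.7 to 377% (median 61.1%), and the 2 leaves of MK040 were the ones above their partners in reads not marked pA, at 171 and 377%. The pA share was 70.1% ± 6.13 in the red leaves of 35S and 74.8% ± 4.33 in those of ZmUBQ. It was lower in the green leaf of all 18 pairs, by 23.7 to 53.0 percentage points in 35S and by 4.10 to 48.8 in ZmUBQ. The smallest drops were those of MK054_3 (from 76.6 to 72.5%), MK056_5 (from 81.0 to 71.6%) and MK056_3 (from 80.0 to 68.1%). The mean change was -36.0 ± 10.6 in 35S and -25.5 ± 15.5 percentage points in ZmUBQ. The difference of -10.6 did not pass (95% interval -23.8 to 2.94; exact permutation p = 0.110, adjusted p = 0.156). Without line MK055, which had the largest mean drop of the ZmUBQ lines (-41.9), it was -18.8 and passed (exact permutation, adjusted p = 0.00749). Leaving out line MK056 instead gave the smallest difference of any leaf or line left out. The difference was -17.4 with run 1 alone and -5.05 with run 2 alone, and passed in neither (exact permutation, adjusted p = 0.107 and 0.624).

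Among the other captured targets, few differed between the promoters in fully green leaves. Of 55 targets above 0 in at least 9 libraries, 7 passed by limma at an adjusted p below 0.05, or 12.7%, and 17 had an unadjusted p below 0.05. RUBY and AT2G02190 were higher in 35S (3.64% of those tested) and 5 targets were lower (9.09%). The ranges of the promoters did not overlap for 3 of the 55 (5.45%), which were RUBY, SADHU1-1 and AT5G59950. The number called was 16 without MK042_3 or MK045_3, 15 without MK044_3 and 13 without MK016_5. The median log2 difference over all 55 was -0.26. Centring each library on the median of its native targets moved that median by 0.48, and 15 targets then passed, 9 higher and 6 lower in 35S. RUBY and the called targets other than SUR1 were among these 15.

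SADHU1-1 (AT2G10410), a non-coding retroelement of the Sadhu family that the target names class as an unmethylated transposable element, was lower in all 35S leaves. Its signal was 24152 ± 20736 in 35S and 147947 ± 13225 in ZmUBQ leaves. In 35S it was 28827, 57397, 42468 and 49380 in the leaves of run 1 and 5238 to 9693 in those of run 2, and in ZmUBQ it ran from 132391 to 168891. SADHU1-1 was above 0 in 3 of the 18 leaves in the full-length tables. The promoters were far apart in all reads, and the runs within 35S were apart as well (log2 of run 2 over run 1 -2.49, limma adjusted p = 2.79e-06). The log2 difference between promoters was -3.16 (SE 0.38; limma adjusted p = 4.22e-08), with -1.77 from run 1 alone and -4.26 from run 2 alone. With run 1 alone and centred libraries it was -0.49 and did not pass (limma adjusted p = 0.0930). Fully red leaves gave -3.17 (limma adjusted p = 4.38e-06), from a signal of 25226 ± 28828 in 35S and 143913 ± 34665 in ZmUBQ.

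AT5G59950, a protein-coding gene of the ALY family of messenger RNA export factors, had a signal of 7966 ± 4769 in 35S and 26102 ± 3667 in ZmUBQ leaves. The highest 35S leaf, MK044_3 at 19017, was just below the lowest ZmUBQ leaf, MK056_3 at 20036. The log2 difference was -1.91 (SE 0.29; limma adjusted p = 2.15e-06). It was -2.55 from run 1 and -1.40 from run 2, and -1.27 and -1.60 with centred libraries, and passed in each. Fully red leaves gave -2.11 (limma adjusted p = 3.57e-06).

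AT1G06000, a glycosyltransferase gene of flavonol metabolism, had a signal of 2135 ± 1193 in 35S and 5833 ± 1357 in ZmUBQ leaves, a log2 difference of -1.64 (SE 0.35; limma adjusted p = 0.000392). The target AT1G06002 overlaps it and had the same difference to 2 decimals, and reads antisense to AT1G06000 made up 47.8% of its signal in 35S and 58.7% in ZmUBQ leaves, so these 2 calls count the same reads. AT1G06000 was at -2.07 from run 1 and -1.29 from run 2 and passed in both. It did not pass with run 1 alone and centred (-0.79, limma adjusted p = 0.113) or with line means as replicates (limma adjusted p = 0.0910). SUR1, the C-S lyase of glucosinolate synthesis, had a signal of 10807 ± 3546 in 35S and 20470 ± 5541 in ZmUBQ leaves. Its log2 difference of -0.95 (SE 0.25; limma adjusted p = 0.00526) became -0.47 with centred libraries (limma adjusted p = 0.274), and 0.33 with run 1 alone and centred. AT2G02190, classed as a methylated transposable element, was at 0 in 6 of 9 leaves of ZmUBQ and at most 73.7 in the others. In 35S it was at 0 in MK016_3 and reached 664 in MK042_3, with a median of 127. Its log2 difference was 4.22 (SE 1.32, limma adjusted p = 0.0230). The size of this value depends on the pseudocount because so many leaves were at 0. AT2G02190 met the filter of 9 libraries above 0 mainly through the 35S leaves. It also passed at pseudocounts of 10 and 0.1, but not without the filter, nor with line means (limma adjusted p = 0.0603). It did not pass without MK040_1 (limma adjusted p = 0.0718), nor without MK016_4, MK055_1, MK055_2, MK056_1 or MK056_3 (limma adjusted p = 0.0515 to 0.0573).

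**Figure D4:**
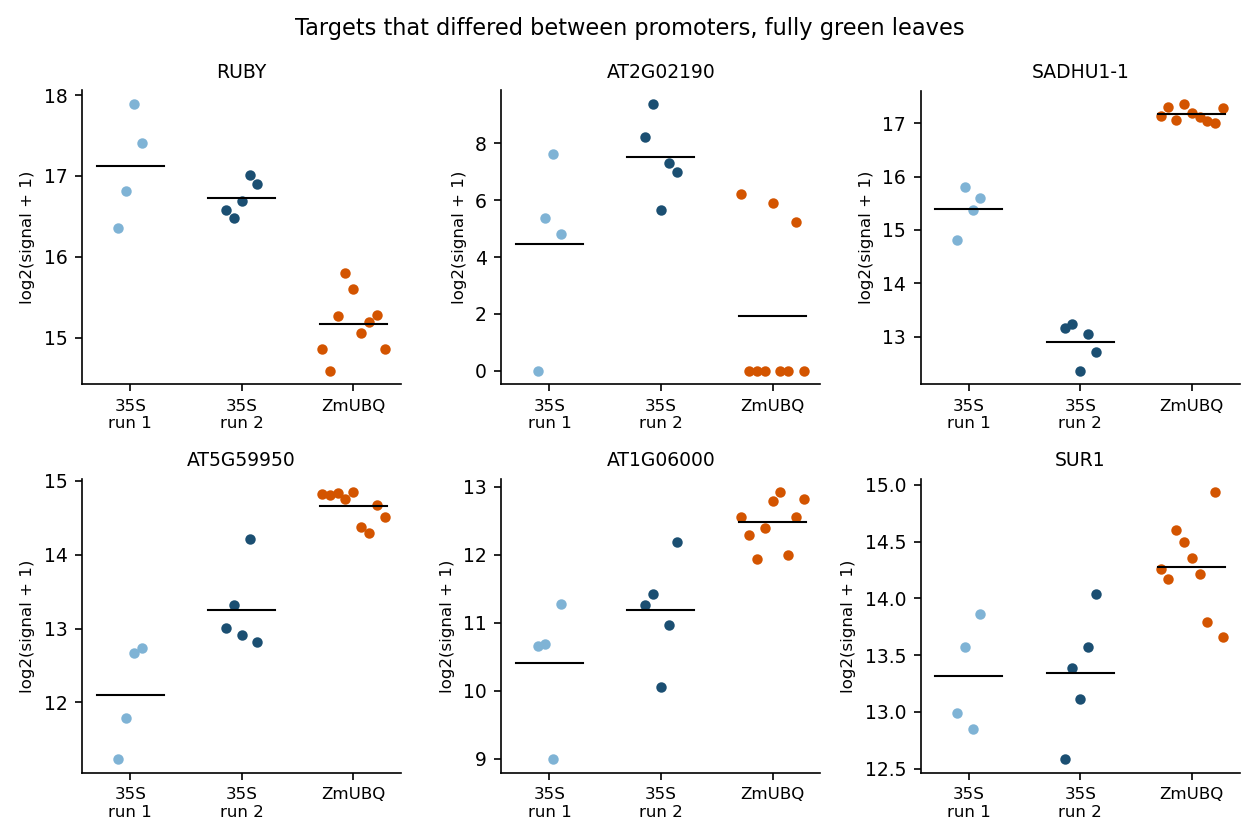
Level of RUBY and of 5 native targets that passed in fully green leaves, as log2(signal + 1), 1 point for each leaf with lines at the group means, for 35S leaves of numbering run 1 (n = 4) and run 2 (n = 5) and for ZmUBQ leaves (n = 9). RUBY is higher in both 35S runs than in ZmUBQ, while SADHU1-1 is lower in both, and lower in run 2 than in run 1 (log2 difference -2.49). AT1G06002 is left out because it shares its reads with AT1G06000.

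Of the 8 genes of the silencing machinery 0 passed in fully green leaves, beside 12.7% of all tested targets, and a count of 0 in so short a list is not read as a result. Their median log2 difference was -0.70, beside -0.26 over all tested targets. Of the 8 genes 7 were below 0, beside 35 of all 55 tested targets. With centred libraries the 2 medians were -0.22 and 0.21. AGO1, the slicer of small RNA silencing, had a signal of 13677 ± 5815 in 35S and 20985 ± 4299 in ZmUBQ leaves. Its log2 difference was -0.72 (limma adjusted p = 0.0503). That of DCL4, the Dicer of secondary small RNAs, was -0.90 (limma adjusted p = 0.0503), and that of RDR6, the RNA-dependent RNA polymerase, was -0.98 (limma adjusted p = 0.0578). The run of the 35S leaves moved with these values. AGO1 was -1.33 from run 1 and -0.24 from run 2, DCL4 was -1.89 and -0.11, and RDR6 was -1.91 and -0.22. All 3 passed by limma with run 1 alone, where 34 of all 49 tested targets passed. None of the 3 passed with run 2 alone, where 15 of 49 did. With centring AGO1 turned round, at -0.05 from run 1 (limma adjusted p = 0.838) and -0.44 from run 2, where it passed (limma adjusted p = 0.0170). In fully red leaves all 3 passed by limma, AGO1 at -1.06, DCL4 at -1.31 and RDR6 at -1.12, beside 13 of all 54 tested targets. The part of the library run in the list's values was not tested. With centred libraries AGO1 was -0.25 and RDR6 was -0.50, and RDR6 then passed (limma adjusted p = 0.0445).

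The counts called in the other lists stand beside the same 12.7% over all tested targets, and with lists this short nothing particular to a list is read from them. Of the 12 targets classed as phasiRNA sources, which give phased small RNAs, 0 passed, and the median was -0.61. AT1G62910 of this class had a log2 difference of -0.85 (limma adjusted p = 0.0503), and -0.37 with centred libraries, where it passed (limma adjusted p = 0.0445). It was at -1.75 with run 1 alone and passed, and at -0.13 with run 2 alone and did not (limma adjusted p = 4.84e-07 and 0.688). The tasiRNA class had 2 targets with a median of -0.75 and 0 that passed. TAS3, a precursor of trans-acting small RNAs that the target names class as an RdDM locus, had a signal of 62717 ± 26547 in 35S and 65595 ± 12536 in ZmUBQ leaves, and a log2 difference of -0.28 (limma adjusted p = 0.579). Of 8 targets classed as RdDM loci 4 could be tested and 0 passed. Of 19 methylated transposable elements 8 could be tested and AT2G02190 alone passed, and of 7 unmethylated ones 6 could be tested and SADHU1-1 alone passed. Of 26 targets classed as protein-coding 21 could be tested and the 4 described above passed, all lower in 35S. Among these 4, AT1G06002 is a long non-coding RNA in the gene table and shares its reads with AT1G06000. Among genes linked to tyrosine, the precursor of betalain, PDS1 (4-hydroxyphenylpyruvate dioxygenase) had a log2 difference of 0.71 (limma adjusted p = 0.0628) and HST, of plastoquinone synthesis, one of -0.31 (limma adjusted p = 0.579). HST was at -1.43 with run 1 alone and at 0.58 with run 2 alone, and passed in both, in opposite directions (limma adjusted p = 1.07e-05 and 0.0209). With centred libraries PDS1 was at 1.19 and passed (limma adjusted p = 0.00635). PDS1 was at 0.75 with run 1 alone and at 0.69 with run 2 alone, and passed in both (limma adjusted p = 0.0394 and 0.0209). The construct target GUS had a signal of 0 to 690 in 35S and 0 to 346 in ZmUBQ leaves (log2 difference -0.12, limma adjusted p = 0.932). The construct target eGFP was above 0 in 3 leaves of 35S and in 0 of ZmUBQ, too few for a test.

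In the fully red leaves 13 of 54 targets passed by limma (24.1%), RUBY higher and 12 lower in 35S, and the median log2 difference of native targets was -0.73, beside -0.28 in green leaves. Of the 7 targets that passed in fully green leaves, 6 passed in the same direction in fully red leaves, and the exception was AT2G02190 at 2.19 (limma adjusted p = 0.213). SUR1 was at -1.60 in red leaves and AT1G06000 at -2.62. HST was at -1.43 and passed in red leaves (limma adjusted p = 0.0171), against -0.31 in green leaves. In the test of whether the change from red to green differed between the promoters, 0 of 62 targets (0%) passed by limma, and 0 had an unadjusted p below 0.05. With the pair of leaves as a block 1 of the 62 passed, HST at 1.11 (limma adjusted p = 0.0278). A test that calls none does not show that the changes were alike.

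**Figure D5:**
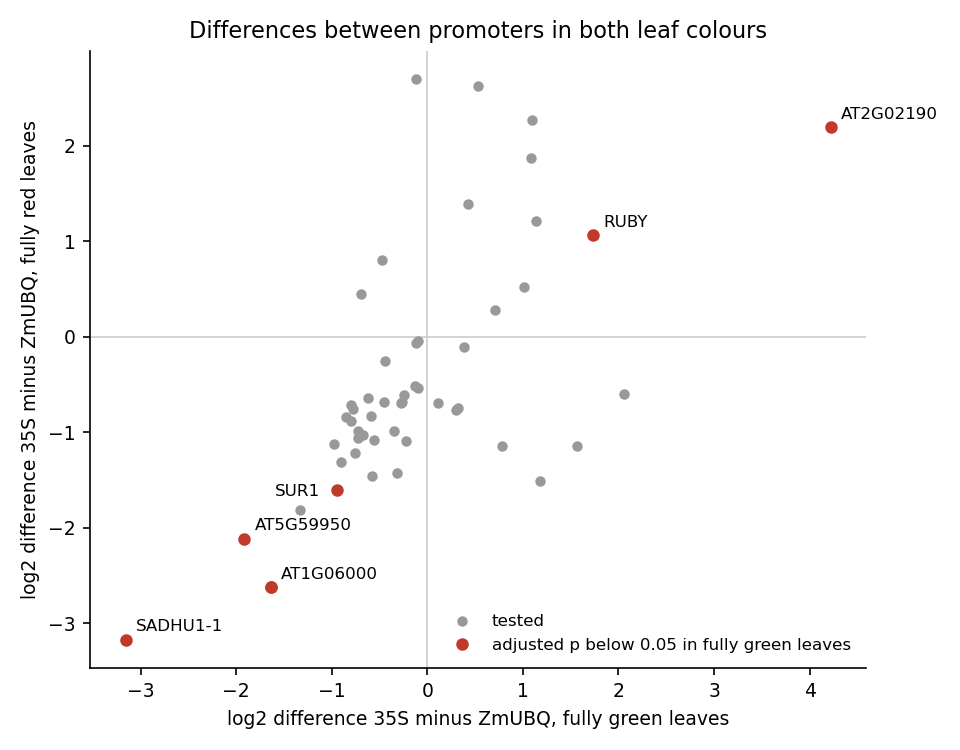
Log2 difference between promoters (35S minus ZmUBQ) of each target in fully green leaves (horizontal) and in fully red leaves (vertical), for targets tested in both. Red points passed in fully green leaves, and AT1G06002 lies under AT1G06000. SADHU1-1 lies at -3.16 and -3.17, and RUBY at 1.74 and 1.06.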

How the data were processed

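The deposited tables hold, per the file headers, a normalised signal per target and library. The authors' scaling factor is not given in the sources used here. Per the submitters' processing notes the build was TAIR10 and reads were trimmed with cutadapt, with no versions. Within each of the 18 fully green libraries all values above 0 (3988 of 3988) were whole multiples of the worth of 1 read, within 0.0055 signal, from which read numbers were inferred; reads are not independent molecules. No 2 of the 18 tables were identical.

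Shares in percent and log2(signal + 1) were computed here from the deposited signal. Levels were compared with limma 3.58.1 (R 4.3.3), with a trend on the mean and Benjamini-Hochberg adjustment over all tested targets, separately in fully green and fully red leaves, and in 1 fit of both colours without a block for the difference of changes. The 9 RUBY measures were also tested with exact two-sided permutation tests over leaves (Python 3.11.15, numpy 2.4.6), adjusted over the 9, and their 95% intervals were had by shifting 1 group until p reached 0.05. Antisense reads and the full-length ratio were added after the data were seen, as were fits by numbering run. The limma fits were tested on simulated data. The text names RUBY and construct targets, up to 10 called targets per direction, and from each list up to 4 called members or else its most abundant member; DCL4, RDR6, AT1G62910, PDS1 and HST were added after their values were seen. The leaves, measures and lists were chosen with earlier results of these data known. All 46 gene identifiers among the targets were found in a RefSeq gene table (TAIR10.1), used for symbols and gene types only. Alternatives were other pseudocounts and scalings, no filter, line means, each leaf or line left out, sense reads, an added T1 leaf, and full-length tables. Probes may capture targets unequally, so levels of different targets were not compared.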

Additional observations from a re-analysis of the deposited data

Results flagged for a closer look

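In each group of 9 leaves the highest or lowest leaf was checked for a gap to its neighbour of more than 0.493 of the range of the group. Of 32 such checks 2 were past that limit, and chance gives about 1 in 20. The antisense share of RUBY in MK040_1 was 1.56%, and the next 35S leaf, MK040_2, had 0.81%. AT2G02190 was at 0 in MK016_3, on the log2(signal + 1) scale, and the next 35S leaf was at 4.80. The cause of either was not tested.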

How the results depend on the processing

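In the tables of all reads, the RUBY differences in all reads (log2 1.36 to 3.24, both ends from a numbering run alone and centred, and 1.52 to 2.28 otherwise), in reads marked pA (1.09 to 1.80) and in reads not marked pA (1.89 to 2.74) kept their direction and passed under each alternative run for them. In the full-length tables RUBY did not pass (log2 0.63, limma adjusted p = 0.418). Leaving out a leaf or a line gave 1.52 to 1.93 for all reads, 1.17 to 3.50 for antisense reads, -25.1 to -7.88 for the pA share, -0.68 to 0.23 for the antisense share, -1.85 to -0.69 for the full-length ratio, -18.8 to -5.15 for the pA share of green minus red leaves, and 0.29 to 0.88 for RUBY in the change from red to green. For antisense reads, the pA share, the full-length ratio and the green minus red pA share, the smaller difference was without line MK056. The larger was without line MK055, and passed in each. With the T1 leaf added the pA share differed by -16.6 and passed. That adjustment ran over fewer measures of RUBY, without those of antisense reads or of pairs. The full-length ratio was -1.61 and passed at a pseudocount of 10, and full-length signal was 1.64 and passed with centred libraries.

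The number of targets called in fully green leaves, 7 of 55, was 15 with centred libraries and 13 with division by the summed native signal. It was 6 of 75 without the filter on low values, 3 with line means and 3 of 33 in the full-length tables. With sense reads alone it was 15 of 44, and 17 of 44 when the T1 leaf was added to these. With the 35S leaves of run 1 and of run 2 alone it was 34 and 15 of 49. With these also centred it was 4 and 16 of 49. It was 5 to 16 with a leaf or line left out, at 16 without MK042_3 or MK045_3, 15 without MK044_3 and 13 without MK016_5, all of run 2. SUR1 was reversed to 0.33 with run 1 alone and centred. For the 6 called targets other than RUBY, 211 of the alternative values kept their direction and call and 22 lost the call. Line means leave fewer replicates and also moved the median log2 difference of native targets from -0.28 to 0.01. The cause of these changes was not tested.

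With the replicate block, the green and red leaf of a line and number taken as a pair, 1 target passed in the change from red to green, and RUBY kept 0.68 (limma adjusted p = 0.20). The main limma fit of the change did not pair the leaves by number. The percentages of a red partner and the test of the green minus red pA share did. Of 18 pairs, 7 had a correlation of their deviations above 0.1 (-0.36 to 0.46). Among the 9 red leaves of its promoter, the own partner correlated best for 6 of the 18 green leaves.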
